A study of Mus musculus with 6 samples.

Results

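The nuclear genes for the subunits of the oxidative phosphorylation complexes were followed in the cochleae of mice with and without Fabp7. Members were the platform's genes with symbols of the Nduf, Sdh, Uqcr, Cox4 to Cox8 and Atp5 series, together with Cyc1. The filter required a probe above the 40th percentile in 3 or more of the 6 arrays, and the brightest such probe represented the gene. Of 86 such genes on the platform, 84 were kept, among 16143 named genes and 27189 features tested in all. They comprised 37 genes of complex I, 4 of complex II, 9 of complex III, 16 of complex IV and 18 of complex V.

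All samples came from female mice aged 7 months. The 3 wild-type samples were Fabp7 (+/+) and the 3 knockout samples Fabp7 (-/-), which lack a fatty acid binding protein of glia. Each sample was RNA pooled from 4 cochleae of 2 mice, the bone of the otic capsule included and the vestibular organs taken out, and was hybridised to its own 1-colour Agilent array. Apart from those of Fabp7 below, whose knockout signals were too dim, every p-value therefore measures the spread between pools. The pools mix all cell types of the cochlea. In such bulk RNA, fewer cells of a type and less RNA per cell cannot be told apart.

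Oxidative phosphorylation makes ATP in the inner mitochondrial membrane. Complex I takes electrons from NADH and complex II from succinate, complex III passes them to cytochrome c, and complex IV hands them to oxygen. The proton gradient built on the way drives complex V, the ATP synthase. In the cochlea the stria vascularis, whose ion pumps sustain the endocochlear potential, and the hair cells are known for a high demand for ATP and are rich in mitochondria. Most subunits are encoded in the nucleus. A core set is encoded by mitochondrial DNA.

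As a check of the labels, the raw signal of Fabp7 was 2674, 1554 and 1860 on the wild-type arrays and 10.9, 3.75 and 3.43 on the knockout arrays, where it lay under the 40th percentile of each array. At such dim signals only a bound on the difference can be given. With the 40th percentile of each array as a floor, the log2 change, knockout minus wild type, was −6.57 (limma adjusted p = 0.00108). The floor replaced all 3 knockout values, so this p does not measure their spread. The signals as deposited gave −8.42 with a limma adjusted p of 0.0610, which did not pass the threshold of 0.05. That p rests on the spread of these dim knockout signals. Every array was scaled to its 75th percentile of raw signal. That was 677, 665 and 668 in wild type against 610, 621 and 581 in knockout, lower on every knockout array. Scaling thus raised knockout signals relative to wild type. Wild-type array 1 had the brightest dim probes, its 25th percentile being 6.66 where the remaining arrays had 3.92 to 4.69. Markers of the labelled tissue were measured: all 6 for hair cells, 5 of 6 for the stria vascularis and 5 of 5 for spiral ganglion neurons.

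The subunit genes were among the bright genes of the cochlea. Levels below are log2 signals with the 75th percentile of each array set to 0, so that a level of 5 is a signal far above most probes. The median wild-type level of the 84 genes was 5.25, against 0.63 for all named genes and −0.60 for all features. All 84 exceeded the 40th percentile on all 6 arrays.

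By complex, the median wild-type level was 5.18 for complex I, 4.52 for complex II, 5.62 for complex III, 5.04 for complex IV and 5.77 for complex V. The members of one complex were spread widely around these medians. Complex I ran from 0.78 for Ndufa4l2 to 7.45 for Ndufa13, an accessory subunit also known as Grim19. Complex II ran from 4.08 for the membrane anchor Sdhc to 5.82 for the iron-sulphur subunit Sdhb. Complex III ran from 3.68 for the Rieske iron-sulphur protein Uqcrfs1 to 6.76 for the hinge protein Uqcrh. Complex IV had the broadest span, from −0.58 for Cox4i2 to 8.20 for Cox6a1, and complex V ran from 0.20 for Atp5c1-ps to 7.04 for the catalytic beta subunit Atp5b. A probe's brightness depends on the probe as well as on its transcript, so no order of abundance among genes or complexes can be read from these levels.

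**Figure D1:**
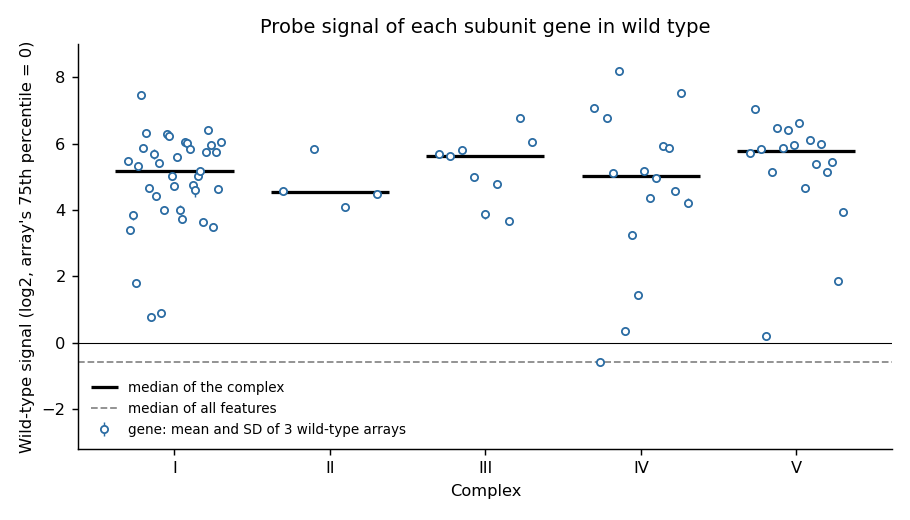
Wild-type signal of the 84 subunit genes, grouped by complex on the horizontal axis, in log2 with the array's 75th percentile at 0. Circles are means of 3 wild-type arrays with their SD, black bars are the medians of each complex (4.52 to 5.77), and the dashed line is the median of all features at −0.60.

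Members Cox7b2 and Cox8c did not pass the filter, and both are known from testis. The raw signal of Cox7b2 was 4.27, 8.77 and 4.80 in wild type against 6.27, 3.80 and 5.27 in knockout. For Cox8c it was 9.996, 3.96 and 3.78 in wild type against 3.99, 3.51 and 3.56 in knockout. Both probes lay under the 40th percentile on every array, so neither gene was measured here.

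Without Fabp7, no subunit gene passed the adjusted threshold. Differences were small and mostly to the same side: 76 of the 84 genes were higher in knockout by their means, in a table where 60.7% of all features were above 0. The median change of the 84 genes was 0.083 in log2, or 1.06-fold, against 0.034 for all features. The change was under 0.2 in size for 83 of them, Cox8b being the exception. For a typical member the 95% interval reached 0.18 to either side of its change. All changes are after scaling, which raised knockout signals relative to wild type. Before it, Cox8a, for example, had raw signals of 125994, 119617 and 124892 in wild type against 122044, 125460 and 112509 in knockout. The part of the scaling in the changes was not tested further.

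Of the 84, 0 had an adjusted p under 0.05 by limma, where 0% of all features did, and the lowest adjusted p of a member was 0.853. At an unadjusted p under 0.05 there was 1 member, Cox8b, a smaller share than the 5.7% of all features. A second description asks only whether all 3 knockout arrays lay to one side of all 3 wild-type arrays. That held for 17 members (20.2%), against 12.4% of all features. In 15 of them the knockout arrays were higher (8.08% of all features), and in Cox7a1 and Cox4i2 they were lower (4.27% of all features). With quantile normalization in place of scaling to a percentile, the count was 7 members, or 8.33%, which is below the 11.2% of all features under that setting.

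**Figure D2:**
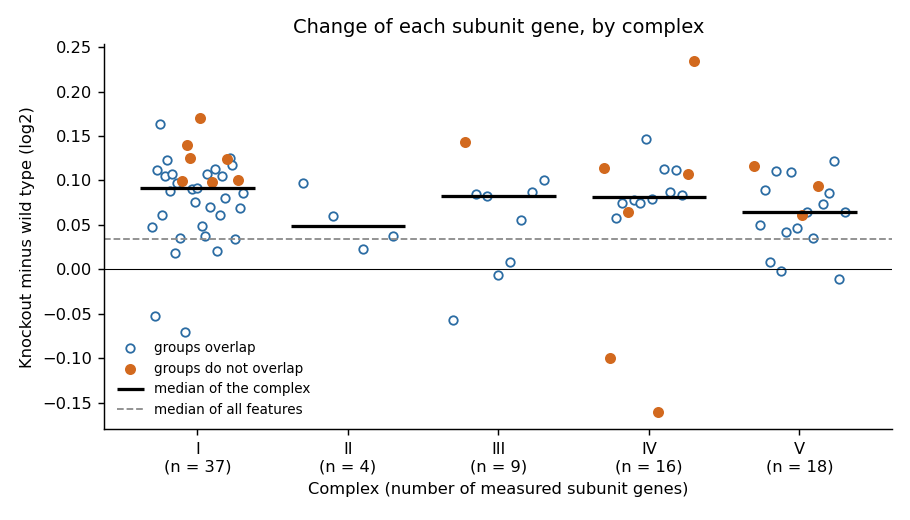
Knockout minus wild type in log2 for each of the 84 subunit genes, grouped by complex on the horizontal axis. Filled points are the 17 genes whose 3 knockout and 3 wild-type arrays do not overlap, black bars are medians of each complex, and the dashed line is the median of all features at 0.034.

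Complex I showed 35 of 37 genes above 0, with a median change of 0.091 and a range from −0.071 to 0.17. In 7 genes the groups did not overlap, or 18.9%, against 12.4% of all features. All had knockout higher: Ndufa9, Ndufb4, Ndufb10, Ndufs5, Ndufb9, Ndufv1 and Ndufa7. Ndufb4, an accessory subunit of the membrane arm, had levels of 5.72, 5.48 and 5.62 in wild type against 5.79, 5.81 and 5.72 in knockout. The groups nearly touched, at wild-type array 1 and knockout array 3. Its change was 0.17 ± 0.08 (SE), and 0.11 without wild-type array 2.

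Ndufa9, an accessory subunit beside the quinone site, had levels of 3.97, 3.99 and 4.04 in wild type against 4.13, 4.21 and 4.08 in knockout. All knockout values were higher, by 0.14 ± 0.07 on average (limma adjusted p = 0.866). Ndufv1, the core subunit that binds NADH, stood at 5.79, 5.66 and 5.75 in wild type against 5.85, 5.86 and 5.80 in knockout. The step between its groups was again small beside their spread, with a change of 0.10 ± 0.07.

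Ndufs1, the largest core iron-sulphur subunit, overlapped between groups, with 5.11, 4.95 and 4.97 in wild type against 5.03, 5.14 and 5.05 in knockout. The levels of Ndufa13 overlapped as well, with 7.52, 7.35 and 7.48 in wild type against 7.59, 7.57 and 7.51 in knockout. Ndufa11b, which RefSeq lists as a transcribed pseudogene, had a change of 0.16 ± 0.08. Signal from a near-identical copy cannot be told apart from its own, so its value is uncertain. The members below 0 were Ndufa8, at −0.071 ± 0.081, and Ndufa10, at −0.052 ± 0.073, both within their errors.

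Complex II, the only complex with no subunit from mitochondrial DNA, had all 4 genes above 0 and none with separate groups. Its median change was 0.049. That was the lowest of the 5 complexes as reported, but not without knockout array 1 (0.064, with complex III at 0.050 and V at 0.052) or with array weights (0.087, with complex III at 0.066 and V at 0.080). Sdha, the flavoprotein that oxidises succinate, had levels of 4.66, 4.50 and 4.52 in wild type against 4.64, 4.68 and 4.66 in knockout. Wild-type array 1 lay among the knockout values. The change of Sdha was 0.097 ± 0.071. Sdhb was at 0.061 ± 0.066, and the membrane anchors Sdhd and Sdhc were at 0.038 ± 0.069 and 0.023 ± 0.064. Without knockout array 2, these 3 genes were at 0.034, 0.0021 and 0.0029. Left out in turn, wild-type array 2 and knockout array 2 brought the median of complex II to 0.026 and 0.018, and wild-type array 1 brought it to 0.074.

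Complex III had 7 of 9 genes above 0 and a median change of 0.082, with values from −0.057 to 0.14. Uqcr10, a small subunit at the edge of the complex, was the only gene with separate groups (11.1%, against 12.4% of all features). Its levels were 5.64, 5.57 and 5.66 in wild type against 5.82, 5.77 and 5.70 in knockout, and the change was 0.14 ± 0.07. The small subunits Uqcrq and Uqcrh were at 0.10 ± 0.08 and 0.087 ± 0.069. Uqcrq was at 0.050 without knockout array 1, and Uqcrh at 0.058 without wild-type array 2 and at 0.029 with quantile normalization. Of the subunits that carry redox centres, Uqcrfs1 was at 0.055 ± 0.066 (0.023 without wild-type array 2), and Cyc1, which holds the haem of cytochrome c1, was at −0.057 ± 0.097.

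The levels of Cyc1 were 5.83, 5.61 and 5.65 in wild type against 5.50, 5.71 and 5.71 in knockout. Knockout array 1 was the lowest of the 6 for this gene, and its change turned to 0.013 without that array, to 0.0084 without wild-type array 1 and to 0.022 with array weights. The core proteins Uqcrc1 and Uqcrc2, which hold no redox centre, were at −0.0068 ± 0.0908 and 0.0084 ± 0.0726. The median of complex III was 0.029 without wild-type array 2, 0.050 without knockout array 1 and 0.044 without knockout array 2.

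Complex IV held the largest changes in either direction, although its median, 0.082, was like that of the others. Of its 16 genes, 14 were above 0. The knockout arrays were all higher for Cox8b, Cox8a, Cox4i1 and Cox6a1, and all lower for Cox7a1 and Cox4i2. Groups were thus separate in 37.5% of its genes, against 12.4% of all features. Several subunits of this complex exist as paired isoforms: a form made in most tissues, such as Cox6a1, Cox7a2 and Cox8a, and a form known from heart and skeletal muscle, such as Cox6a2, Cox7a1 and Cox8b. Cox7a1 and Cox8b are also known from brown fat. The proximal promoters of Cox8a, Cox8b, Cox7a2, Cox7a1 and Cox6a1 are shown as examples of common and muscle isoforms of complex IV. They come from RefSeq on GRCm38.p6, run from 250 bases before to 50 bases after the annotated start of the gene, and are read 5′ to 3′ on the strand of the gene. Cox8a lies at chr19:7217567-7217866 (minus strand), Cox8b at chr7:140900397-140900696 (minus strand), Cox7a2 at chr9:79759804-79760103 (minus strand), Cox7a1 at chr7:30183921-30184220 (plus strand) and Cox6a1 at chr5:115348909-115349208 (minus strand). Capitals mark matches to the motifs named after the sequences.
Cox8a: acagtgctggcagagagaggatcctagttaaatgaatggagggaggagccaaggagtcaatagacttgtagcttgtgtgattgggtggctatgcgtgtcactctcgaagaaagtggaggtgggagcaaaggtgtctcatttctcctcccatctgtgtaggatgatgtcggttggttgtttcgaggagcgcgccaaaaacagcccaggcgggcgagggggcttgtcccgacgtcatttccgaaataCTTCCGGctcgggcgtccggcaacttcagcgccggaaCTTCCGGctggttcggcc
Cox8b: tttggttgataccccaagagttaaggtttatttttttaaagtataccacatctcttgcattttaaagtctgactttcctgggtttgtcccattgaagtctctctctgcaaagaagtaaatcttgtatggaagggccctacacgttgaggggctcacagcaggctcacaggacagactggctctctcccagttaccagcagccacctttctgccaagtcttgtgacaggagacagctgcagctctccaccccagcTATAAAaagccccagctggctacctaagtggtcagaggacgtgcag
Cox7a2: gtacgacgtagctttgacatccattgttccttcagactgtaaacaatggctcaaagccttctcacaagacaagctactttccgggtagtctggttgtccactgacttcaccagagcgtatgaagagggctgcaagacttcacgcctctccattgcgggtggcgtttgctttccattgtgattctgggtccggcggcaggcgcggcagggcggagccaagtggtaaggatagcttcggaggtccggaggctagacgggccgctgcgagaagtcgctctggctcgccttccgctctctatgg
Cox7a1: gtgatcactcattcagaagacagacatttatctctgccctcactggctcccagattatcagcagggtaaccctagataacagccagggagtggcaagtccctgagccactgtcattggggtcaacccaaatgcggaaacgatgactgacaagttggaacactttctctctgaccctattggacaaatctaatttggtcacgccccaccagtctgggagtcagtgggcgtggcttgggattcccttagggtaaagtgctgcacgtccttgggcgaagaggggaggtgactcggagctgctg
Cox6a1: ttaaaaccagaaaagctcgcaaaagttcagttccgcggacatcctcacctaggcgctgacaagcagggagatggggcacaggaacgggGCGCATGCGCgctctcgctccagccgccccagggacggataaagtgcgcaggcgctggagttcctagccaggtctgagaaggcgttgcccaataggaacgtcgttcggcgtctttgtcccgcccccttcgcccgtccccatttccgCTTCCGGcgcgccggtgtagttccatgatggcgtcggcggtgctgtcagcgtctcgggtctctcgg

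On both strands, the letters searched were GCATGCGC for NRF-1, CCGGAAG for ETS factors such as GABP, AAGATGGC for YY1 and TATAAA for a TATA box. NRF-1 and GABP are known activators of respiratory subunit genes. Cox8a held 2 ETS matches, at −5 and 32 from the start. Cox6a1 held 1 ETS match at −16 and 2 overlapping NRF-1 matches, 1 on each strand of the same palindrome, at −162 and −160. Cox8b held only TATAAA, at 4, and the windows of Cox7a2 and Cox7a1 held none of these letters.

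A promoter window was found for 67 members, some with several, giving 72 windows. NRF-1 letters were in 13.9% of these windows and in 2.71% of the 32851 windows in the table. For ETS the shares were 23.6% and 8.86%, for YY1 13.9% and 2.75%, and for TATAAA 11.1% and 13.6%. The 31 genes with an NRF-1, ETS or YY1 match had a median change of 0.075, and the 36 without one had 0.088. A match is a description of the letters, not a measured binding site.

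Cox8b had levels of 4.24, 4.08 and 4.34 in wild type against 4.39, 4.54 and 4.43 in knockout. All knockout values were higher, with wild-type array 3 closest to them. The change was 0.23 ± 0.09 (SE), or 1.18-fold, with a limma adjusted p of 0.853. As each array was left out, Cox8b ranged from 0.17 (without wild-type array 2) to 0.29 (without wild-type array 3). Its partner Cox8a stood at 7.54, 7.49 and 7.55 in wild type against 7.64, 7.66 and 7.60 in knockout, a change of 0.11 ± 0.06, which was 0.029 with quantile normalization. Both forms of COX8 were thus to the same side.

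The isoforms of COX7A had changes of opposite sign. The muscle form Cox7a1 had levels of 4.38, 4.36 and 4.34 in wild type against 4.14, 4.31 and 4.15 in knockout. Wild type was tight, and every knockout value was lower, with knockout array 2 the nearest. The change was −0.16 ± 0.07 (limma adjusted p = 0.866), and −0.099 with array weights. Cox7a2, by contrast, was at 5.06, 4.92 and 4.93 in wild type against 5.14, 5.10 and 5.01 in knockout, with overlap at wild-type array 1, and its change was 0.11 ± 0.08. Cox7a2l, which helps complexes III and IV associate, was at 0.087 ± 0.080.

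Cox4i1, the common form of the regulatory subunit COX4, had levels of 7.16, 6.99 and 7.10 in wild type against 7.20, 7.21 and 7.17 in knockout. The groups were separate by a narrow step, with a change of 0.11 ± 0.07 (0.066 without wild-type array 2 and 0.011 with quantile normalization). Cox4i2, the form known from lung, was dimmer and went the other way, at −0.60, −0.60 and −0.54 in wild type against −0.61, −0.68 and −0.75 in knockout. Its change was −0.10 ± 0.07, and −0.065 without knockout array 3.

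For COX6A, the muscle form Cox6a2 had the largest standard error of all members. Its levels were 0.22, 0.41 and 0.40 in wild type against −0.34, 1.66 and −0.07 in knockout. Knockout array 2 stood far above every other array, while the other knockout arrays were the lowest of the 6. The change was 0.078 ± 0.520, and −0.54 without knockout array 2. Cox6a1 was steady at 8.22, 8.17 and 8.20 in wild type against 8.29, 8.27 and 8.23 in knockout. Its groups nearly touched and its change was 0.064 ± 0.061, turning to −0.028 with quantile normalization.

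By their mean, markers of skeletal muscle were highest on knockout array 2, as Cox6a2 was. On wild-type array 1 the markers were next highest, while Cox6a2 had its lowest wild-type level there. Of 14 listed markers 11 were measured, all with means above 0 in the comparison, while Myh1, Myh2 and Mylpf did not pass the filter. Their mean level was 0.75 on knockout array 2, −1.03 on wild-type array 1 and between −2.23 and −1.69 on the other arrays. Their summed raw signal ran from 42440 to 52568 in wild type and from 42961 to 62322 in knockout, most of it from Pvalb. The other 10 markers summed to 15789 on knockout array 2 and to between 2518 and 4772 on the remaining arrays. The brown fat marker Ucp1 was at 0.02, −2.31 and −0.81 in wild type against −5.18, −2.69 and −3.61 in knockout. All 3 measured markers of that list were below 0, with Elovl3 not measured. In scaled levels the groups overlapped for Cidea and Ppargc1a. Summed raw signals, before scaling, were 5931 to 7461 in wild type against 4494 to 5051 in knockout. Most of each sum came from Ppargc1a, also counted below as a regulator of biogenesis. Its raw signals were 5052, 4541 and 4010 in wild type against 3850, 3675 and 3323 in knockout. Adipocyte markers, 5 of 7 measured without Lep and Cfd, had 1 above 0 and sums of 5521 to 7389 in wild type and 4682 to 6028 in knockout. By their mean, heart markers were highest on wild-type array 1, where Myh6 was lowest, with summed raw signals from 1131 to 3240 in wild type against 623 to 768 in knockout. Of 5 listed, 4 were measured without Myl7, and 3 of these were below 0. Within the knockout arrays, Cox6a2, Cox8b and Cox7a1 were all highest on array 2, as 32 of the 84 members were in all. The part of these tissues in the isoform values was not tested.

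Other members of complex IV were closer together. The testis form Cox6b2 was at 0.15 ± 0.08 (0.064 with array weights). The common form Cox6b1 was at 0.075 ± 0.114, turning to −0.030 without knockout array 1. Of 4 testis markers 2 passed the filter, Prm1 and Prm2, with 1 above 0. Both were dim in these female mice, with raw signals of 43.3 to 138 for Prm1 and 21.5 to 41.3 for Prm2. Cox5a, a subunit on the matrix side, was at 0.058 ± 0.067, but at −0.0053 with quantile normalization, and Cox7b was at 0.11 ± 0.07. Ndufa4, named for complex I and now placed by structural work with complex IV, was at 0.11 ± 0.07, and its hypoxia-induced relative Ndufa4l2 was at 0.018 ± 0.077, turning to −0.022 without wild-type array 2 and to −0.015 without knockout array 3. Counting both with complex IV left the median of either complex at its value.

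**Figure D3:**
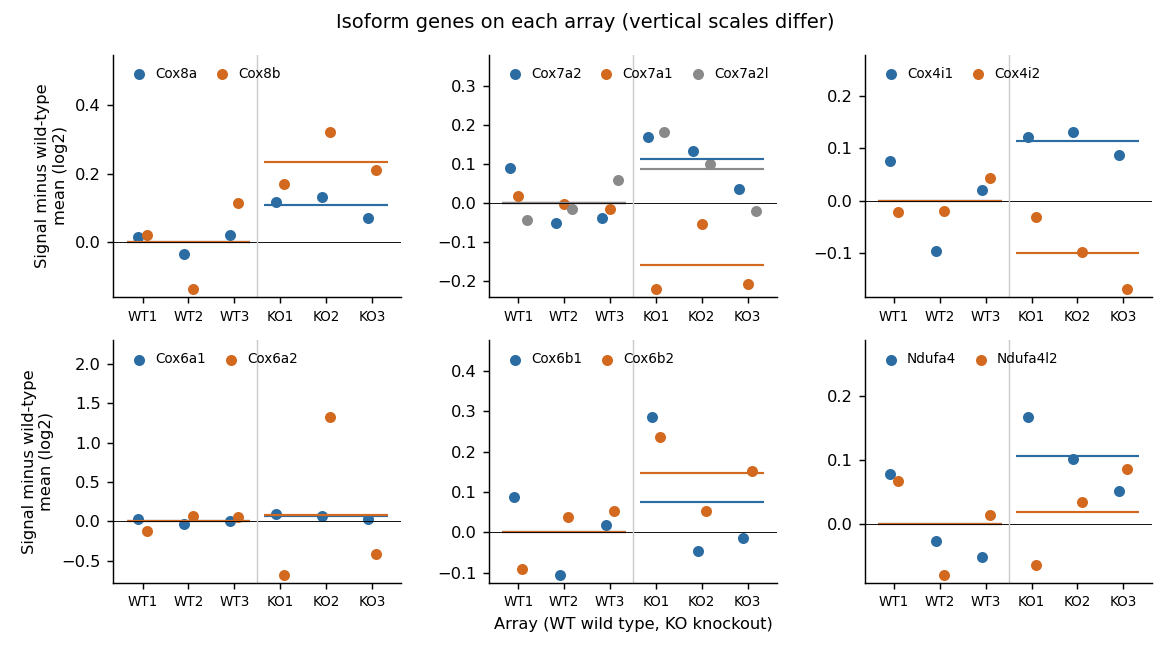
Isoform genes of complex IV, with Ndufa4 and Ndufa4l2, on each array: the vertical axis is the log2 signal minus the gene's wild-type mean, horizontal lines are group means, and the scale differs between panels. Cox7a1 and Cox4i2 are lower on all 3 knockout arrays, Cox8a, Cox8b, Cox4i1 and Cox6a1 higher (Cox6a1 at −0.028 with quantile normalization), and Cox6a2 is high on knockout array 2.

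Complex V had 16 of 18 genes above 0, a median change of 0.065 and a range from −0.011 to 0.12. Knockout was higher on all arrays for Atp5a1, Atp5k and Atp5h. Groups were thus separate in 16.7% of its genes, against 12.4% of all features. Atp5a1, the alpha subunit of the catalytic head, had levels of 5.76, 5.64 and 5.72 in wild type against 5.86, 5.81 and 5.80 in knockout, a change of 0.12 ± 0.07. Its catalytic partner Atp5b overlapped, at 7.10, 6.99 and 7.04 in wild type against 7.13, 7.09 and 7.06 in knockout. The change of Atp5b was 0.050 ± 0.066, and −0.038 with quantile normalization.

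The genes Atp5g1, Atp5g2 and Atp5g3 all encode the same c subunit of the rotor ring and differ in their import sequences. Their changes were 0.042 ± 0.073, 0.11 ± 0.08 and 0.046 ± 0.075. The probes of Atp5g1 disagreed, and the mean of its probes gave −0.049. Atp5mpl, a small membrane subunit, was at 0.12 ± 0.08. Among those near 0 were Atp5o, which joins head and stalk, at −0.011 ± 0.081, and Atp5e, the epsilon subunit, at −0.0024 ± 0.0691. The pseudogene Atp5c1-ps, whose probe may also read the gamma subunit Atp5c1, was at 0.0080 ± 0.1030, with values from −0.058 to 0.083 as each array was left out.

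The members moved together from array to array. Each gene was set relative to its own mean over the 6 arrays, and the median over the 84 genes was taken on each array. These medians were 0.025, −0.10 and −0.033 on the wild-type arrays and 0.069, 0.053 and −0.0062 on the knockout arrays. The groups overlapped, since wild-type array 1 lay above knockout array 3. Wild-type array 2 was the lowest of the 6 arrays for 67 of the 84 genes, and knockout array 3 was the lowest knockout array for 64.

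The highest value fell on knockout array 1 in 39 genes, on knockout array 2 in 24 and on wild-type array 1 in 18. Every complex followed the same order of arrays on the wild-type side. Complexes I, III, IV and V had knockout array 3 lowest of the knockouts. Complex II differed on knockout array 1, at −0.0044, where the others lay between 0.065 and 0.085. Without wild-type array 2 the median change of all members was 0.048, with 68 genes above 0, and that of complex I was 0.056. Without knockout array 3 complex IV was at 0.13.

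**Figure D4:**
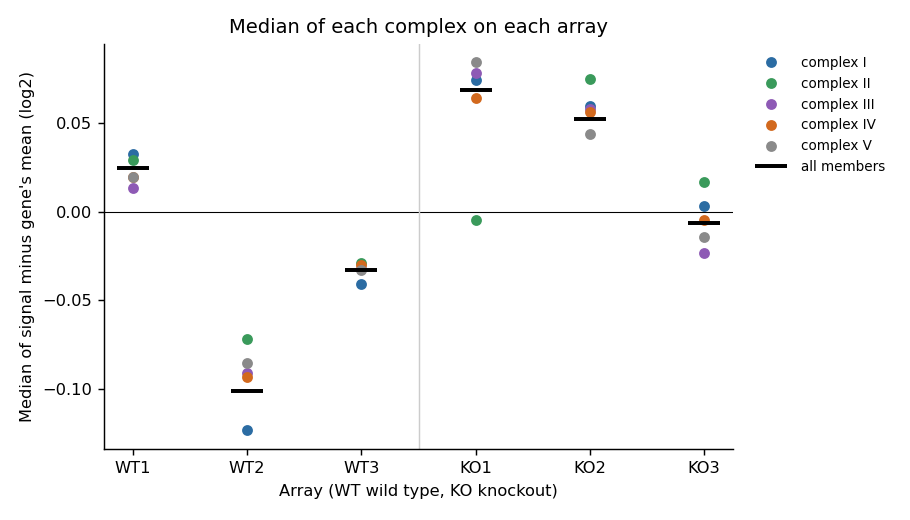
Median over the members of each complex on each array, in log2 relative to each gene's mean over the 6 arrays; black bars are medians of all 84 genes. Wild-type array 2 is lowest (−0.10), knockout arrays 1 and 2 are highest (0.069 and 0.053), and wild-type array 1 lies above knockout array 3.

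A gene's brightness moved with its change across the whole table. Among named genes that are no member, the median change was 0.015 for 6797 genes with a mean level below 0, 0.023 between 0 and 2, 0.038 between 2 and 4, 0.050 for 1238 genes between 4 and 6, 0.080 for 267 genes between 6 and 8 and 0.12 for 57 genes above 8. The members lay mostly in the upper ranges, with a median change of 0.087 for 46 genes between 4 and 6 and 0.089 for 20 genes between 6 and 8. Outside these ranges, 9 members between 2 and 4 had 0.055, 7 between 0 and 2 had 0.018, Cox4i2 below 0 had −0.10 and Cox6a1 above 8 had 0.064, so that from 0 to 2, below 0 and above 8 the members lay under the other genes. Over the middle range of the members' levels, 4.32 to 6.00, 42 members had a median change of 0.088 and 41 were above 0, where 874 other genes had a median of 0.051 and 77.2% were above 0. Groups did not overlap in 9 of those members (21.4%) and in 15.7% of the other genes.

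Quantile normalization, which gives every array the same distribution of signals, lowered the median change of the members to 0.041, with 70 of 84 above 0, and that of all features to 0.018. By complex it gave 0.057 for complex I, 0.019 for complex II, 0.032 for complex III, 0.041 for complex IV and 0.033 for complex V, all still above 0. The part of signal intensity in the members' changes was not tested further. As a comparison, the 73 measured cytosolic ribosomal protein genes, which are brighter still at a median wild-type level of 6.70, had a median change of 0.10 with 70 above 0. The 78 mitochondrial ribosomal protein genes, at a median level of 2.80, had 0.045 with 67 above 0.

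**Figure D5:**
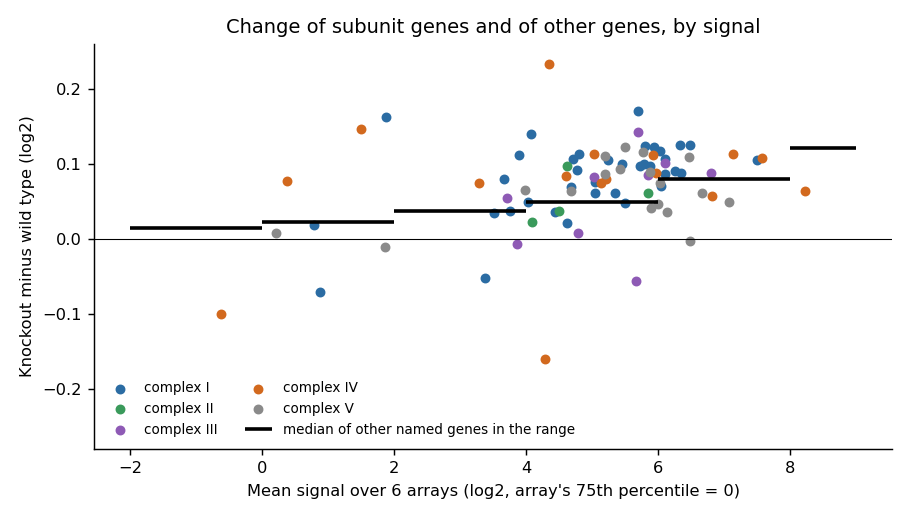
Knockout minus wild type in log2 against the mean log2 signal over 6 arrays for the 84 subunit genes, coloured by complex. Black segments are median changes of the other named genes in each range of signal and climb from 0.015 to 0.12, the outer segments standing for all genes beyond 0 and 8.

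Several members were read by more than 1 probe. Of 28 such genes, 20 had all passing probes to one side of 0 and 8 had probes on both sides, namely Atp5g1, Atp5j2, Atp5l, Cox7a2l, Cox7c, Ndufa5, Ndufb11 and Ndufv3. Of the 40 probes that were not the brightest of their gene, 31 were above 0, with a median change of 0.066. They differed from the brightest probe of the same gene by 0.023 in size at the median and by 0.31 at most.

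The 13 subunit genes of mitochondrial DNA are transcribed apart from the nuclear genes. Their median change was 0.092 with 11 above 0, but none had separate groups. COX1, the catalytic subunit of complex IV, was the most variable of them, at 8.79, 8.60 and 7.47 in wild type against 7.70, 7.72 and 8.93 in knockout, and both groups held high and low arrays. ND3 was at 0.23 ± 0.12 and ND5 at 0.15 ± 0.09, while ND4 and ND1 were at 0.00036 ± 0.07786 and −0.0054 ± 0.1581.

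Assembly factors, which build the complexes without staying in them, were described as lists of their own. Of the 13 factors of complex I measured of 14, 5 were above 0 and the median change was −0.017, with Timmdc1 at 0.095 ± 0.064 and Ndufaf1 at 0.095 ± 0.090. The 4 factors of complex II had a median of 0.0037, with Sdhaf3 lower on all knockout arrays at −0.11 ± 0.07 and Sdhaf4 at 0.066 ± 0.069. The 6 factors of complex III had −0.012, and Lyrm7, which stabilises the Rieske protein before its insertion, was dim and uncertain at −1.12 ± 0.49 with overlapping groups, beside Ttc19 at 0.069 ± 0.065.

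For complex IV, 17 of 20 factors were measured, with a median of 0.019, and 9 were above 0. Cox10, which makes a precursor of its haem, was at −0.28 ± 0.18 and Coa5 at −0.11 ± 0.07. Of the 3 assembly factors of complex V and its inhibitor Atpif1, the median was 0.030. Atpaf1, a chaperone of the beta subunit, was at 0.48 ± 0.18 with all knockout arrays higher, on a dim probe whose raw signals were 30.3, 36.2 and 34.8 in wild type against 55.1, 41.0 and 33.7 in knockout; in raw signal, before scaling, the groups overlapped. Atpif1 was at 0.053 ± 0.079. By limma, 0 of these factors passed the adjusted threshold.

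Cytochrome c itself, Cycs, had levels of 4.87, 4.80 and 4.79 in wild type against 4.92, 4.85 and 4.82 in knockout, a change of 0.045 ± 0.066 with overlap. Among 11 regulators of mitochondrial biogenesis 7 were above 0, with a median of 0.055. The coactivator Ppargc1b was at 0.36 ± 0.14 on a dim probe above the 40th percentile on 3 arrays only, and its relative Ppargc1a was at −0.17 ± 0.10. Of the citric acid cycle genes 11 of 12 were measured and 10 were above 0, with a median of 0.037, Mdh2 at 0.11 ± 0.07 and Ogdh at 0.084 ± 0.083. None of the regulators or cycle genes passed the adjusted threshold by limma.

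Markers of the cochlear cell types known for many mitochondria were also mostly higher in knockout by their means. The stria vascularis list had 5 of 6 markers measured, without Kcne1, and all were above 0. Its mean level was 3.17, 2.91 and 3.04 in wild type against 3.16, 3.31 and 3.31 in knockout, and its summed raw signal was 50998 to 57614 and 51165 to 57339. Esrrb, a nuclear receptor of marginal cells, was at 0.34 ± 0.11 and the potassium channel Kcnq1 at 0.27 ± 0.11. All 6 hair cell markers were above 0, with mean levels of 0.03, −0.39 and 0.17 in wild type against 0.25, 0.10 and 0.36 in knockout. Their summed raw signals were 13202 to 17253 and 16207 to 18735. These mean levels lean on Slc26a5, which had the largest change of the list, 0.92 ± 0.25, on a dim probe. Its raw signals were 16.8, 20.9 and 30.2 in wild type against 44.7, 38.3 and 30.3 in knockout. Ocm, at 0.33 ± 0.12, was also higher on all knockout arrays. The groups overlapped for Otof, Tmc1, Myo7a and Pou4f3. Wild-type array 2, lowest for most subunit genes, was also the lowest array for both of these lists. Spiral ganglion neuron markers were mixed, with 3 of 5 above 0, Nefm at −0.24 ± 0.22 and Snap25 at −0.037 ± 0.158. Their mean level overlapped between groups, at 5.01, 4.66 and 4.60 in wild type against 4.71, 4.79 and 4.85 in knockout. The part of these cells in the subunits' changes was not tested, and no marker passed the adjusted threshold by limma.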

How the data were processed

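RNA of the 6 samples carried Cy3 per the labels. For each array the authors deposited 1 linear signal intensity per probe, from Agilent Feature Extraction 10.7 per the submitters' processing notes; the exported column and its background treatment are not given in the sources here. The authors also deposited a log2 matrix, each column of which equalled the log2 raw signal of its array minus a constant, with 75th percentiles of 0.0055 to 0.0080 and column medians of −3.58, −3.67 and −3.67 in wild type against −3.55, −3.69 and −3.68 in knockout.

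The log2 raw signal minus its array's 75th percentile was computed for 55676 probes, of which 30625 had 1 gene in the platform annotation, 25051 had none and 0 had several. Probes above the 40th percentile on at least 3 arrays were kept (33484), the brightest standing for its gene. Of the probes of the 84 members, 124 passed and 2 did not. The number of arrays limits the precision. Groups came from the genotype labels and replicate numbers from the titles. Knockout was compared with wild type in limma 3.58.1 (R 4.3.3, lmFit and eBayes), with Benjamini-Hochberg adjustment over all features and a threshold of 0.05; the steps were tested on simulated data. Promoters were matched by gene ID.

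Members, lists and named genes were chosen with earlier results of these data known. Named were, per complex, the 3 members with the lowest unadjusted p, core catalytic members, isoforms and the brightest and dimmest member; per other list, the 2 lowest in p; members that failed the filter; and, after their values were seen, members below 0 or with separate groups, COX1, ND1, ND4 and Cycs. Protein sequences are not analysed here. Arrays with the same replicate number did not deviate together (correlations −0.13, −0.043 and −0.14), so the numbers were not used as pairs. Alternatives covered scaling, filter, probe choice, the model of the spread, array weights, a floor, the features tested, the placing of Ndufa4 and leaving out each array; members without pseudogenes were added after seeing the data.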

Additional observations from a re-analysis of the deposited data

How the results depend on the processing

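No member passed the adjusted threshold under any of the 18 alternatives. The median change of every complex stayed above 0 in all of them; complex III ranged from 0.029 to 0.12 as each array was left out. At an unadjusted p under 0.05 there was 1 of the 84 members as reported, where 5.7% of all features were. With quantile normalization there were 2 (5.63% of all features), and with no filter 0 (4.11%). A trended robust eBayes gave 8 of the 84 members, a larger share than the 5.74% of all features. Array weights also gave 8, a smaller share than the 12.6% of all features under that setting. The replicate block gave 0, against 4.41% of all features. As each array was left out, the count ranged from 0 to 2, and the share of all features from 4.17% to 7.86%. With fewer arrays, groups separate more easily. Members with separate groups were 65.5% without wild-type array 1 and 58.3% without knockout array 3, against 27.1% and 27.3% of all features. They were 21.4%, 25%, 21.4% and 22.6% without wild-type arrays 2 and 3 and knockout arrays 1 and 2, against 18.8%, 22.8%, 21.3% and 18.5%.

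The Fabp7 change passed the threshold at −8.43 with quantile normalization (adjusted p = 0.0366), −8.42 with the trended robust eBayes (0.0146), −8.64 with array weights (0.00813), −6.57 with signals raised to the 40th percentile (0.00108) and −8.42 over named genes only (0.0303), by limma. Without knockout array 1 it also passed, at −8.95 (0.00733), but not without arrays 2 or 3, at −8.17 (0.486) and −8.15 (0.443), nor with no filter (0.204), by limma. It was not tested where a probe had to pass on all arrays or a wild-type array was missing. With signals raised to the 40th percentile, the p does not measure the spread of Fabp7 in knockout, whose values the floor replaced. Under the other settings the p rests on knockout signals that lay under the 40th percentile of each array.

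Of the 37 named members, the change moved by over 1.5 times in 17 with quantile normalization and in 19 without wild-type array 2, to a smaller or reversed value in 17 and 18 of them. It did so in 15 with array weights and in 4 to 13 as another array was left out. Among the named members, directions reversed for Cox6a1 (−0.028), Atp5b (−0.038) and Cox5a (−0.0053) with quantile normalization, for Cyc1 with array weights (0.022) and for Atp5g1 as the mean of its probes (−0.049). Leaving out single arrays gave ranges of −0.022 to 0.060 for Ndufa4l2, −0.058 to 0.083 for Atp5c1-ps, −0.098 to 0.013 for Cyc1, −0.54 to 0.46 for Cox6a2 and −0.030 to 0.14 for Cox6b1. Without knockout array 2, Cox6a2 was among the 2 members at an unadjusted p under 0.05 (limma adjusted p = 0.957). The cause was not tested. Normexp and a slide or scan block were not run, since the tables hold no background or scan columns; leaving out Atp5s and Atp5sl was not run, since neither symbol was matched.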
